A study of Mus musculus with 92 samples.

Results

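Oxidative phosphorylation is carried out by 5 protein complexes of the inner mitochondrial membrane, and the transcripts of their nuclear-encoded subunits are described here in the muscle, blood and spinal cord of a mouse model of amyotrophic lateral sclerosis. Members were taken by symbol: every gene whose annotated symbol begins with Nduf, Uqcr, Atp5, Cox followed by a digit, or Sdha, Sdhb, Sdhc or Sdhd. This gave 91 genes, measured by 107 probes, of 15967 named genes on the array. The rule used no measured value. By complex there were 36 genes of complex I, 8 of complex II, 7 of complex III, 26 of complex IV and 14 of complex V. By role there were 73 subunits and 18 assembly factors, which help to build a complex without staying in it. Ndufa4, first named as a complex I subunit, was counted with complex IV.

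The study compared G93A-SOD1 mice with wild type littermates in 3 tissues at 100 and 70 days of age, on 92 single-colour Illumina arrays in 12 groups of 7 or 8. G93A-SOD1 mice carry a mutant human superoxide dismutase 1 transgene that causes progressive loss of motor neurons. Mice of both genotypes bear the same label, B6.Cg-Tg(G93A-SOD1)1Gur/J, which names the transgenic line, and the design text calls the wild type mice littermates. Muscle was the left tibialis anterior, blood was whole blood collected in PAXgene tubes and depleted of haemoglobin mRNA, and spinal cord was the lumbar part. The G93A-SOD1 groups were muscle at 100 days (7 arrays) and 70 days (8), blood at 100 days (8) and 70 days (8), and spinal cord at 100 days (8) and 70 days (8). The wild type groups held 7 arrays at 100 days and 8 at 70 days in each of the 3 tissues. The model expresses its transgene throughout the body, so each tissue carries the mutant protein itself. These are whole tissues, and fewer cells of a type cannot be told apart from less RNA per cell.

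Complex I takes electrons from NADH and complex II takes them from succinate; both pass them to ubiquinone. Complex III hands them on to cytochrome c, complex IV (cytochrome c oxidase) gives them to oxygen, and complex V (ATP synthase) uses the resulting proton gradient to make ATP. Several complex IV subunits exist as isoforms from separate genes: Cox6a2, Cox7a1 and Cox8b are the heart and skeletal muscle forms, and Cox6a1, Cox7a2 and Cox8a are the ubiquitous forms, also called liver forms. The tibialis anterior is a muscle of mostly fast fibres, and spinal cord neurons depend strongly on oxidative phosphorylation.

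The array quality and the tissue labels were checked first. Probes detected per array ranged from 8512 to 11577 in muscle, from 6809 to 9691 in blood and from 5212 to 13428 in spinal cord. Markers of the labelled tissues were present: 12 of the 14 fast fibre genes were detected in muscle, 7 of the 12 erythroid and 10 of the 13 neutrophil genes in blood, and 8 of the 12 motor neuron genes in spinal cord. All fast fibre and erythroid genes that had a probe were detected in their tissue, Mmp8 was the neutrophil gene not detected in blood, and Mnx1 and Nefl were the motor neuron genes not detected in spinal cord. Detection alone did not separate the tissues, since spinal cord had 10 of the 14 fast fibre and 9 of the 13 neutrophil genes. The summed linear levels differed more, with each tissue normalized by itself. In wild type at 100 days their medians for fast fibre genes were 260096 in muscle and 9829 in spinal cord. For neutrophil genes they were 17372 in blood and 1857 in spinal cord. In spinal cord 3 arrays carried muscle transcripts: for the fast fibre genes the mean log2 difference from the wild type mean was 4.38 and 4.39 in replicates 3 and 5 of wild type at 70 days and 2.62 in replicate 8 of G93A-SOD1 at 100 days, against -2.13 to 0.19 on the other 28 arrays. The spinal cord array with the fewest detected probes, 5212, was replicate 1 of G93A-SOD1 at 70 days, and the next was replicate 5 of wild type at 100 days, with 9208. One blood array, wild type at 70 days replicate 6, had a median signal of 190.8, against 74.4 to 93.6 on the other 30. Spinal cord values are given with all arrays, and some of them also without these arrays.

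The RefSeq promoters show what the members share in sequence, and those of the genes that the muscle results turn on are shown, each running from 250 bases before to 50 bases after the RefSeq start of the gene (GRCm38.p6), 5′ to 3′ on the strand of the gene. Cox8a lies on the minus strand at chr19:7217567-7217866, Cox8b on the minus strand at chr7:140900397-140900696 and Cox6a1 on the minus strand at chr5:115348909-115349208. Cox19 lies on the minus strand at chr5:139345117-139345416 and Ndufaf5 on the plus strand at chr2:140170396-140170695. Capitals mark matches on either strand to the motifs spelled out after them.
Cox8a: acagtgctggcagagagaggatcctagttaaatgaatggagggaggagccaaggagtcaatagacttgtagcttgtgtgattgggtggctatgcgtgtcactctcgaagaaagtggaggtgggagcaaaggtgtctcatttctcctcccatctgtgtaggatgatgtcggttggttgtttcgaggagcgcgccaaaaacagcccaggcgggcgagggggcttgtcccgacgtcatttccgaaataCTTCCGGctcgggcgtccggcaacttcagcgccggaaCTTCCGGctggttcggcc
Cox8b: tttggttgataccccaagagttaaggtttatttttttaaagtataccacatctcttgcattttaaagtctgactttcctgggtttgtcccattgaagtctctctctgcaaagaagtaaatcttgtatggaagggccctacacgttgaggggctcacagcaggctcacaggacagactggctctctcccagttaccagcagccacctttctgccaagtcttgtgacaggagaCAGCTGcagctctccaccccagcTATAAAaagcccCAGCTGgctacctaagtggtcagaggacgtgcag
Cox6a1: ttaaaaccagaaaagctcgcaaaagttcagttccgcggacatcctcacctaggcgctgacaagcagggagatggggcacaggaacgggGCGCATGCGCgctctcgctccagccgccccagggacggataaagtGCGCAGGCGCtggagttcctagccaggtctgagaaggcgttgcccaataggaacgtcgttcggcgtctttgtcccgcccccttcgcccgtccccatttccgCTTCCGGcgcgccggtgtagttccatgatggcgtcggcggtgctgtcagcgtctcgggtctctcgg
Cox19: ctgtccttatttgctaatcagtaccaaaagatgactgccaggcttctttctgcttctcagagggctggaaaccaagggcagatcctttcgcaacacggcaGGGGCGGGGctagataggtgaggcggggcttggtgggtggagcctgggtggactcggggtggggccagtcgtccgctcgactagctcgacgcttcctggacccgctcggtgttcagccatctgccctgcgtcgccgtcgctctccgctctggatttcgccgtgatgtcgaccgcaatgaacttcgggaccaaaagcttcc
Ndufaf5: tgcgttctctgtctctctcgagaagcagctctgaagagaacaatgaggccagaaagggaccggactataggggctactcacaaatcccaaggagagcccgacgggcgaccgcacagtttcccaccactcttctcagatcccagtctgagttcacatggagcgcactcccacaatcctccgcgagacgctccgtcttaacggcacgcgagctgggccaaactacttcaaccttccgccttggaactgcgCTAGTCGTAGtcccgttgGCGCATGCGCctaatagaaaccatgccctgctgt

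In these windows the Cox8a promoter held 2 ETS matches (CCGGAAG), and that of its muscle counterpart Cox8b held 2 E-box matches (CAGCTG) and 1 TATA box match (TATAAA). The Cox6a1 promoter held 2 NRF1 matches (GCGCA, any base, GCGC) and 1 ETS match, and the Cox19 promoter 1 SP1 match (GGGGCGGGG). The Ndufaf5 promoter held 1 NRF1 match and 1 match to CTA, any 4 bases, TAG. Those letters are a loose form of the MEF2 site, in which the 4 middle bases are A or T. In the Ndufaf5 match they were GTCG, so it is not a MEF2 site. None of these matches overlapped another. A promoter entry was found for 75 of the 91 members, 6 of them with more than 1, and for 27025 genes in all. Genes were counted that had the letters in at least 1 promoter. The NRF1 letters occurred for 17 members (22.7%), against 5.19% of all genes with a promoter entry. The ETS letters occurred for 23 (30.7%, against 9.93%), and those of YY1 (AAGATGGC) for 11 (14.7%, against 3.19%). NRF1, YY1 and the ETS factor GABP are known regulators of nuclear genes for mitochondrial proteins. The ERR letters (AAGGTCA) occurred for 7 members (9.33%, against 5.38%) and the SP1 letters for 13 (17.3%, against 12.9%). The shares lay the other way for the E-box, with 5 members (6.67%, against 18.3%), and for the TATA box with 9 (12%, against 15.7%). They also did for the loose MEF2 letters with 2 (2.67%, against 4.23%), which do not measure MEF2 sites. A match is a run of letters and says nothing of binding.

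Detection was judged within each tissue: 7 or more arrays had to give a detection p-value under 0.05, and each member was read from the brightest probe that met this. In muscle 82 of the 91 members passed, in spinal cord 82 and in blood 77. The same 9 members passed in no tissue: Ndufs1, Ndufab1 and Ndufaf6 of complex I, Sdha and Sdhaf1 of complex II, Uqcrfs1 and Uqcrq of complex III, and the testis isoforms Cox7b2 and Cox8c. Sdha, the flavoprotein subunit of succinate dehydrogenase, Ndufs1, the iron-sulfur subunit of the NADH module, and Uqcrfs1, the Rieske protein, are essential subunits, so a missing call for them speaks only of their probes at this sensitivity. Blood lacked 5 further members, Cox7a1, Cox8b, Cox11, Ndufb2 and Atp5pb.

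In muscle at 100 days, the mean over members lay lower in most G93A-SOD1 arrays than in wild type arrays, by small amounts. For each array, the log2 value of each member was set against the wild type mean of the tissue over both ages, and the 82 differences were averaged. The 7 G93A-SOD1 arrays at 100 days gave -0.36, -0.12, -0.13, -0.13, 0.01, -0.23 and -0.10 (replicates 1 to 7), against 0.24, 0.14, -0.02, -0.13, 0.09, 0.00 and -0.14 in the 7 wild type arrays. Of the G93A-SOD1 arrays 6 were below 0, and the groups overlapped. At 70 days the 8 G93A-SOD1 arrays gave -0.23, -0.57, -0.15, -0.05, -0.06, -0.29, 0.11 and 0.08, against -0.09, -0.05, 0.06, -0.12, -0.23, -0.03, 0.14 and 0.15 in the 8 wild type arrays. The 70-day groups overlapped more, and 1 G93A-SOD1 array, replicate 2, lay below all other muscle arrays.

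**Figure D1:**
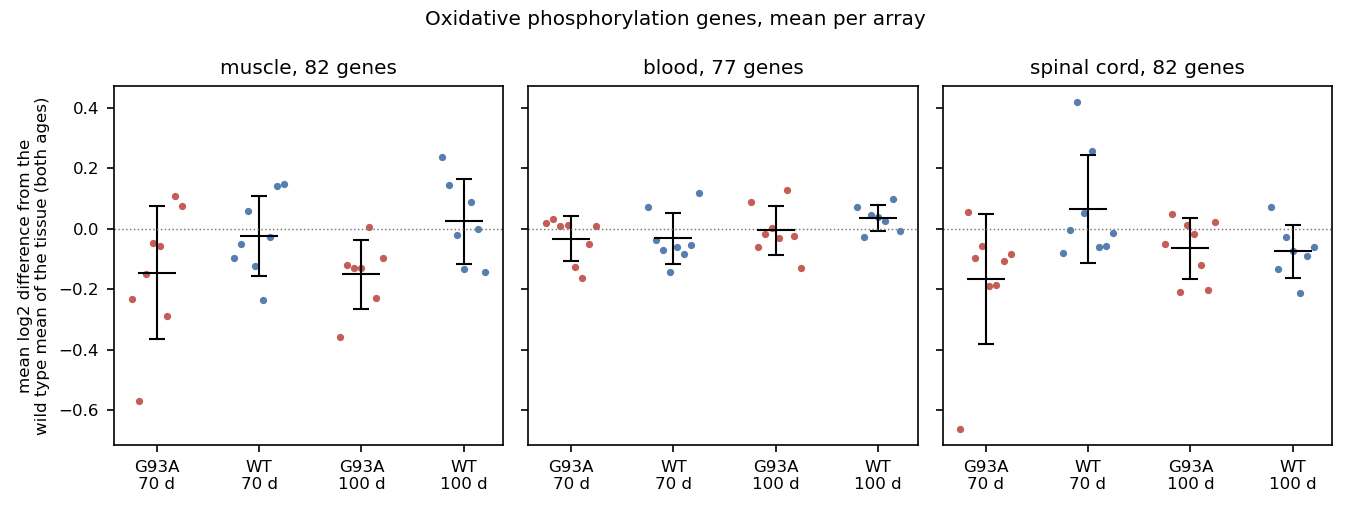
Mean log2 difference of the detected members from the wild type mean of the tissue (both ages), 1 dot per array, for muscle, blood and spinal cord, with the groups along the horizontal axis and black bars for the mean and SD of each group. Muscle G93A-SOD1 arrays at 100 days lie between -0.36 and 0.01, wild type arrays between -0.14 and 0.24; in spinal cord the lowest dot, -0.66, is replicate 1 of G93A-SOD1 at 70 days.

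Gene by gene, 3 of the 82 members differed between G93A-SOD1 and wild type muscle at 100 days (limma with Benjamini-Hochberg adjustment over all 9089 genes tested, adjusted p under 0.05), a share of 3.66% against 10.8% of all genes tested (982 genes). Higher were 2 members (2.44%, against 6.05% of all genes), and lower was 1 (1.22%, against 4.75%). The share of members that passed was below that of all genes, and 25.6% of members had an unadjusted p under 0.05, against 28% of all genes. The direction was less even: 69 of the 82 fold changes (84.1%) were below 0, against 51.5% of all genes tested, and the median log2 fold change was -0.16, against -0.01 over all genes. With arrays centred on their medians 54 of 82 were below 0, and the median was -0.05, against 0.18 over all genes. These fold changes come from shared arrays and are not independent, and the counts are given as a description.

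Cox8a, the ubiquitous isoform of complex IV subunit 8, rose in G93A-SOD1 muscle at 100 days. Its log2 level was 9.80 at the lowest, 10.19 at the median and 10.78 at the highest in the 7 G93A-SOD1 arrays, against 9.62, 9.87 and 10.01 in the 7 wild type arrays. The means were 10.27 ± 0.31 in G93A-SOD1 and 9.84 ± 0.14 in wild type (SD, n = 7 each). All but 1 of the G93A-SOD1 arrays lay above the highest wild type array, so the groups overlapped through that array alone. The log2 fold change was 0.44 (SE 0.13, 95% interval 0.16 to 0.71), a 1.35-fold higher level, with an adjusted p of 0.0365 by limma. Its muscle counterpart Cox8b ran from 14.17 through 14.37 to 14.44 in G93A-SOD1 muscle, against 14.32, 14.46 and 14.78 in wild type muscle, a log2 fold change of -0.13 (SE 0.08, adjusted p = 0.312) that did not pass the test.

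Cox19, a copper chaperone that takes part in building complex IV, also rose at 100 days. Its log2 level ran from 9.59 through a median of 10.15 to 10.34 in G93A-SOD1 muscle, against 9.54, 9.66 and 9.89 in wild type muscle. The means were 10.06 ± 0.29 and 9.66 ± 0.12 (SD, n = 7 each), a log2 fold change of 0.40 (SE 0.12, 95% interval 0.15 to 0.66, 1.32-fold, adjusted p = 0.0365 by limma). At 70 days Cox19 ran from 9.80 through 10.08 to 10.20 in G93A-SOD1 muscle, against 9.32, 9.79 and 10.15 in wild type muscle. All 8 G93A-SOD1 arrays were then above the wild type mean, within the wild type range for most, and the difference of 0.26 did not pass the test.

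Ndufaf5, an assembly factor of complex I, fell at 100 days, and no other member passed in that direction. With array weights in the fit 2 members were called higher and 7 lower. Its log2 level ran from 8.97 through a median of 9.30 to 10.25 in G93A-SOD1 muscle, against 9.96, 10.15 and 10.45 in wild type muscle. The G93A-SOD1 arrays formed a spread-out group: replicates 1, 2, 3 and 6 lay at 9.30, 8.97, 8.97 and 9.24, below every wild type array, and replicates 4, 5 and 7 lay at 10.01, 10.25 and 10.25, inside the wild type range. The means were 9.57 ± 0.58 and 10.20 ± 0.17 (SD, n = 7 each), a log2 fold change of -0.63 (SE 0.21, 95% interval -1.05 to -0.21, 0.648-fold, adjusted p = 0.0458 by limma). A second Ndufaf5 probe gave a log2 fold change of -0.74 with an SE of 0.39, and did not pass (adjusted p = 0.221 over all probes). With only the groups compared in the fit, the adjusted p of the first probe was 0.0570.

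No member had groups that did not overlap at 100 days in muscle, while 2.54% of all genes tested did. The 3 calls depended on the scaling and the filter: with arrays centred on their medians the adjusted p was 0.203 for Cox8a, 0.238 for Cox19 and 0.343 for Ndufaf5, and with no detection filter it was 0.0667, 0.0625 and 0.0964.

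**Figure D2:**
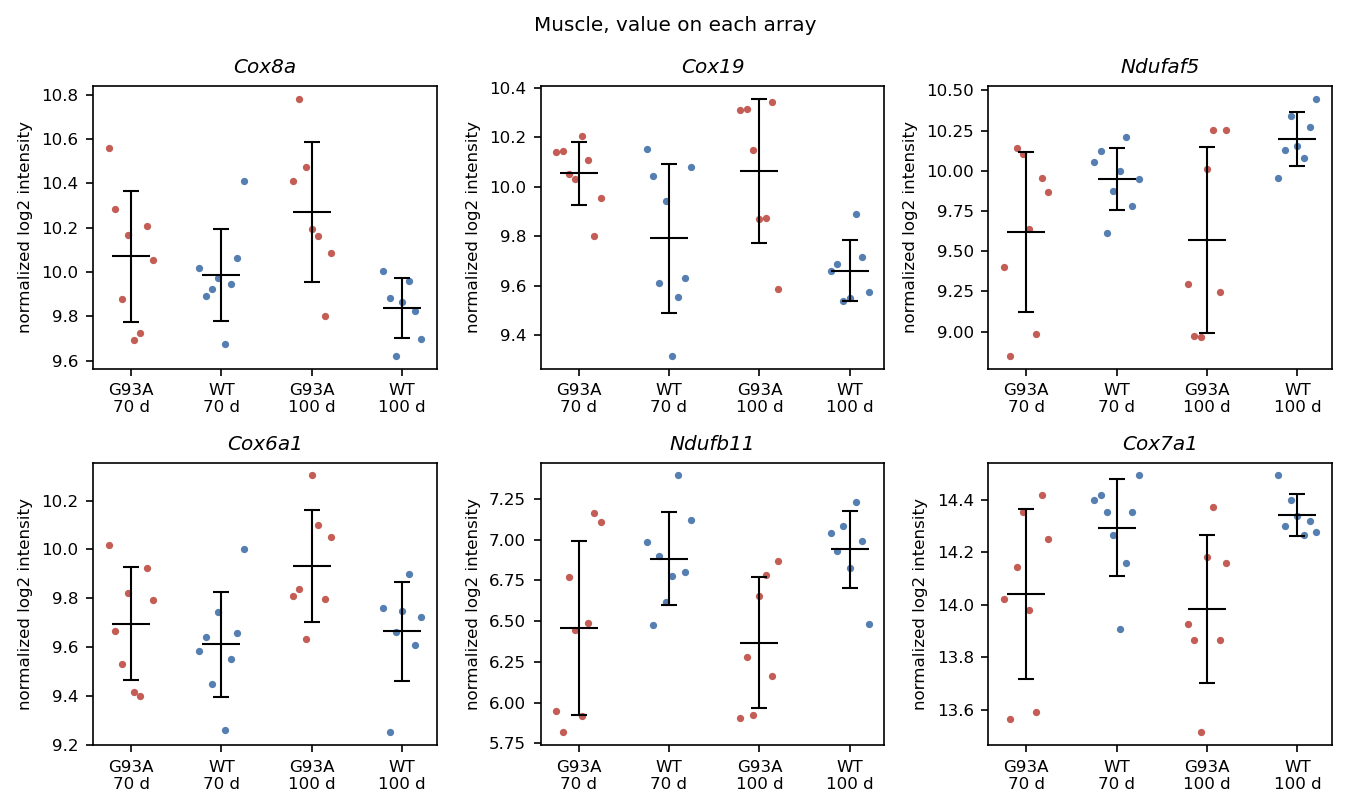
Log2 level of Cox8a, Cox19, Ndufaf5, Cox6a1, Ndufb11 and Cox7a1 in muscle, 1 dot per array in the 4 groups, with black bars for the group mean and SD. Of the 6 genes shown, Cox8a, Cox19 and Ndufaf5 passed the test at 100 days; the 4 low Ndufaf5 dots of G93A-SOD1 at 100 days lie between 8.97 and 9.30.

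By complex, the fold changes at 100 days in muscle lay furthest to one side for complexes I, II, III and V, and were mixed for complex IV. In complex I, 31 of 33 members had a fold change below 0, with a median of -0.20. Its core subunits, which have bacterial relatives, carry the electrons or pump protons. Those detected here, Ndufs3, Ndufs7, Ndufs8 and Ndufv1, belong to the part that carries electrons. They were below 0 in 4 of 4, with a median of -0.27. The proton-pumping core subunits are encoded by mitochondrial DNA and were not among the members. The supernumerary subunits, added around that core in animals, were below 0 in 23 of 24, with a median of -0.22. The assembly factors of complex I were below 0 in 4 of 5, with a median of -0.11. Of the subunits none passed the test. Complex I means per array were -0.45, -0.24, -0.26, -0.11, -0.00, -0.30 and -0.06 in the G93A-SOD1 arrays at 100 days, against 0.24, 0.12, -0.00, -0.10, 0.07, -0.02 and -0.14 in wild type arrays. The 4 lowest values of the 14 were G93A-SOD1 arrays, and the other 3 G93A-SOD1 arrays lay among the wild type ones.

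Ndufb11, a supernumerary subunit of complex I, came nearest to the threshold among subunits that were lower. It ran from 5.91 through 6.28 to 6.87 in G93A-SOD1 muscle, against 6.48, 6.99 and 7.23 in wild type muscle, a log2 fold change of -0.57 (SE 0.20, adjusted p = 0.0577). Ndufb7, another supernumerary subunit, ran from 8.57 through 8.79 to 9.06, against 8.93, 9.12 and 9.44, with a log2 fold change of -0.31 (SE 0.11, adjusted p = 0.0689). For both genes every G93A-SOD1 array was below the wild type mean, and the groups overlapped. Among the core subunits, the log2 fold change was -0.37 for Ndufs7, which holds the last iron-sulfur cluster before ubiquinone (adjusted p = 0.103), -0.31 for Ndufs8 and -0.24 for Ndufv1, the flavin subunit that takes electrons from NADH. Ndufaf7, an assembly factor, had the smallest p of the complex I members above 0, with a log2 fold change of 0.06. These did not pass the test.

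In complex II, 5 of 6 members were below 0, with a median of -0.28, and 3 of 3 detected subunits were, with a median of -0.36. Sdhc, a membrane anchor of succinate dehydrogenase, ran from 12.40 through 12.66 to 13.15 in G93A-SOD1 muscle, against 12.79, 13.11 and 13.33 in wild type muscle (log2 fold change -0.36, SE 0.13, adjusted p = 0.0714). The assembly factor Sdhaf2 had a log2 fold change of 0.01. In complex III all 5 detected members were below 0, between -0.27 and -0.05, and none had an unadjusted p under 0.05. Uqcrc1, a core protein of that complex, had the smallest p, with a log2 fold change of -0.17 (SE 0.10, adjusted p = 0.285). In complex V 12 of 14 were below 0, between -0.53 and 0.02, with a median of -0.20, and again none had an unadjusted p under 0.05. The smallest p there was that of Atp5mpl, a small membrane subunit, with a log2 fold change of -0.18 (SE 0.10, adjusted p = 0.251), and Atp5j2, subunit f, lay at 0.02. Atp5g1, Atp5g2 and Atp5g3, which encode the same mature subunit c of the proton ring, had log2 fold changes of -0.12, -0.23 and -0.03.

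Complex IV was mixed: 16 of 24 members were below 0, between -0.62 and 0.44, with a median of -0.05, and 8 had an unadjusted p under 0.05. Its isoform genes went in both directions. Cox7a1, the muscle isoform of subunit 7a, ran from 13.51 through 13.93 to 14.37 in G93A-SOD1 muscle, against 14.26, 14.32 and 14.49 in wild type muscle. All but 1 of the G93A-SOD1 arrays lay below the lowest wild type array, and the log2 fold change was -0.36 (SE 0.13, adjusted p = 0.0689). Cox6a1, the ubiquitous isoform of subunit 6a, ran from 9.63 through 9.84 to 10.30, against 9.25, 9.72 and 9.90. Its log2 fold change was 0.27 (SE 0.12, adjusted p = 0.145), and a second, dimmer probe for it gave 0.35 with an adjusted p of 0.0261 over all probes. The 2 probes thus went the same way and fell on different sides of the threshold.

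The other complex IV isoforms did not pass the test at 100 days, and apart from Cox7b and Ndufa4 their differences were small. The log2 fold change was 0.07 for Cox6a2, -0.12 for Cox7a2, -0.06 for Cox4i1 and 0.11 for Cox4i2, the isoform of subunit 4 known from lung. It was -0.12 for Cox6b1 and -0.00 for Cox6b2, the testis form, and -0.62 for Cox7b, with an SE of 0.50. Cox6b2 was detected on 8 of the 30 muscle arrays, so its value rests on a signal mostly at background. Cox7b varied widely in every group, running from 6.68 through 7.24 to 9.16 in G93A-SOD1 and from 7.07 through 8.21 to 9.98 in wild type. Ndufa4 ran from 13.66 through 13.88 to 14.56, against 14.35, 14.51 and 14.58, with a log2 fold change of -0.41 (SE 0.17, adjusted p = 0.108). Among the assembly factors of complex IV, Cox10, the haem O synthase, ran from 10.12 through 10.50 to 11.11, against 10.81, 11.06 and 11.32 (log2 fold change -0.44, SE 0.16, adjusted p = 0.0720). Cox15, which makes haem A from the product of Cox10, had a log2 fold change of 0.30 (adjusted p = 0.151), with every G93A-SOD1 array above the wild type mean. The 2 consecutive haem enzymes thus had fold changes of opposite sign, and neither passed the test.

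**Figure D3:**
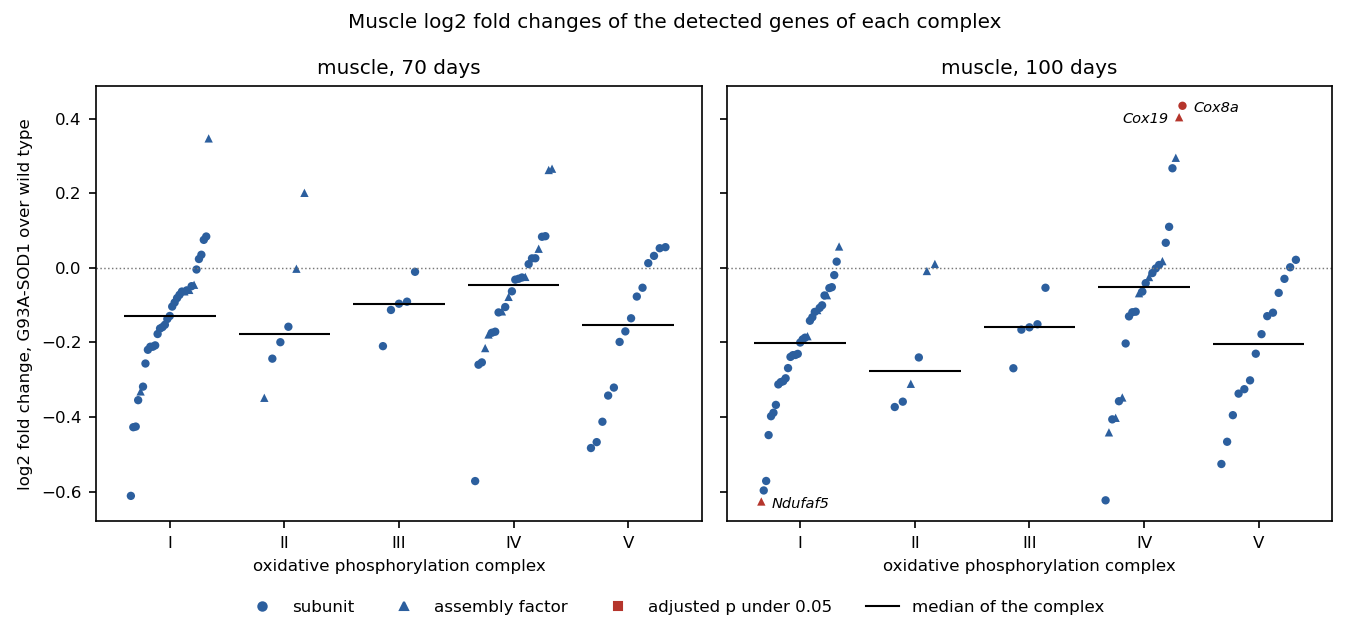
Log2 fold change of G93A-SOD1 over wild type muscle for each detected member, split by complexes I to V, at 70 and 100 days, with dots for subunits, triangles for assembly factors, red for an adjusted p under 0.05 and a bar for the median of each complex. At 100 days the medians are -0.20, -0.28, -0.16, -0.05 and -0.20 for complexes I to V.

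The muscle of the same G93A-SOD1 mice differed in fibre and denervation transcripts, and these values stand beside the member values because they vary over the same arrays. All 8 detected genes of the 14 in the denervation response list rose at 100 days, Gadd45a, Chrng, Runx1 and Ncam1 with log2 fold changes of 2.74, 5.08, 3.11 and 2.45. Their summed linear level was 3656 to 15430 in G93A-SOD1 muscle at 100 days, against 1282 to 1885 in wild type. Chrna1, Musk, Myod1 and Myh8 had a probe and were not detected, and 2 genes had none. As a mean log2 difference the denervation response was 3.31, 3.09, 3.10, 1.56, 0.95, 3.09 and 1.23 in replicates 1 to 7 of G93A-SOD1 at 100 days, against -0.17 to 0.12 in wild type. Replicates 1, 2, 3 and 6, with the highest values, were the same 4 arrays in which Ndufaf5 was low. At 70 days the denervation response was 3.04, 3.29, 0.36, 0.02, 3.16, 3.23, 0.10 and 0.30 in the 8 G93A-SOD1 arrays, and Ndufaf5 was 9.40, 8.85, 10.14, 10.10, 9.64, 8.99, 9.95 and 9.87 in the same arrays. Wild type Ndufaf5 at 70 days lay between 9.61 and 10.21.

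Single genes of the fast fibre and slow and oxidative fibre lists passed as well. Of 12 detected fast fibre genes 3 fell at 100 days, the myosin Myh4 (-1.71), the myosin-binding protein Mybpc2 (-1.64) and the glycogen phosphorylase Pygm (-0.98), while 11 of the 12 were below 0, against 51.5% of all genes. The summed linear level of the fast fibre list was 210389 to 259193 in G93A-SOD1 muscle, against 234017 to 262425 in wild type, and the ranges overlapped. Of 10 detected slow and oxidative fibre genes 3 rose, Tnni1 (3.03), Tnnt1 (2.51) and Atp2a2 (1.93), and all 10 were above 0, with summed levels of 29992 to 83500, against 23403 to 53689, and these ranges overlapped too. Slow and oxidative fibre means in G93A-SOD1 arrays at 100 days were 2.14, 1.79, 2.07, 0.24, 0.07, 1.96 and 0.34. The part of denervation and of fibre type in the member values was not tested.

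Other genes of mitochondrial energy metabolism were taken from lists not defined by the symbol rule. Among 11 detected regulators of mitochondrial biogenesis, Esrra, the oestrogen-related receptor alpha, fell at 100 days (log2 fold change -0.54, SE 0.18, adjusted p = 0.0452), and the other 10 did not pass. Ppargc1a, its coactivator, had a log2 fold change of -0.56 with an SE of 0.30 (adjusted p = 0.236). Among 8 detected carriers, cytochrome c and creatine kinase genes, 2 rose. Slc25a5, the more widely expressed adenine nucleotide translocase, had a log2 fold change of 0.66 (SE 0.13, adjusted p = 0.00617), and Atpif1, the inhibitor of ATP synthase, one of 0.66 (SE 0.16, adjusted p = 0.0150). Slc25a4, the muscle form of the translocase, had a log2 fold change of -1.36 with an SE of 0.59 and did not pass (adjusted p = 0.127).

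Of the 14 detected citric acid cycle and pyruvate dehydrogenase genes none passed, 3 had an unadjusted p under 0.05, and 12 were below 0, with a median of -0.22. Of 12 assembly factors outside the symbol rule none passed, 3 had an unadjusted p under 0.05, and 11 were below 0, with a median of -0.13. Of 68 mitochondrial ribosome genes none passed, 12 had an unadjusted p under 0.05, and 47 were below 0, with a median of -0.06. Of 9 glycolysis genes, Pfkm, the muscle phosphofructokinase, fell (-0.31, SE 0.10, adjusted p = 0.0373), and 7 were below 0.

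Single genes from the marker lists of other cells also differed in muscle at 100 days. Of 9 detected microglia and macrophage genes Aif1 (0.57) and Cx3cr1 (0.53) rose, and single genes rose in the astrocyte list (Serpina3n, 1.21, of 6), the neutrophil list (S100a8, 2.55, of 3) and the T and B cell list (Blnk, 1.47, of 1). Of 4 erythroid genes Ank1 fell (-0.46). A single gene does not measure a cell type, and Ank1 and Serpina3n are not limited to the cells of their lists. The summed linear levels of these lists overlapped between the genotypes. For microglia and macrophage genes they were 940 to 2218 in G93A-SOD1 muscle, against 712 to 1274 in wild type. For erythroid genes they were 6277 to 10007, against 7713 to 11005. None passed among 3 adipocyte genes, 2 platelet genes and 1 motor neuron gene (limma; 0, 1 and 1 had an unadjusted p under 0.05). Their part in the member values was not tested.

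At 70 days in muscle no member passed the test (limma, 0 of 82), against 0.011% of all genes tested, or 1 gene of 9089. An unadjusted p under 0.05 was reached by 9 members (11%), against 15.4% of all genes. Of the members 64 were below 0 (78%), against 53.4% of all genes, with a median of -0.10 against -0.02. The medians by complex were -0.13, -0.18, -0.10, -0.05 and -0.15 for complexes I to V. The smallest p was that of Ndufaf7, which ran from 5.85 through 6.50 to 6.60 in G93A-SOD1 muscle, against 5.58, 5.94 and 6.58 in wild type muscle (log2 fold change 0.35, SE 0.13, adjusted p = 0.218). Ndufs7 ran from 11.52 through 12.26 to 12.74, against 12.49, 12.56 and 12.64 (log2 fold change -0.35, SE 0.14, adjusted p = 0.227). The wild type arrays lay close together and the G93A-SOD1 arrays spread to both sides of them. Atp5d, the delta subunit of the rotor stalk, had a log2 fold change of -0.17 (SE 0.07, adjusted p = 0.262), with all 8 G93A-SOD1 arrays below the wild type mean.

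The change with age did not differ between genotypes for any member at the threshold (limma interaction, 0 of 82, against 0% of all genes; 0 members had an unadjusted p under 0.05). Cox8a had the smallest p, with a difference of 0.35 between the log2 fold changes at 100 and 70 days (SE 0.18, adjusted p = 0.998), followed by Ndufa8 (-0.42) and Ndufaf7 (-0.29). Between 100 and 70 days, no member differed within G93A-SOD1 muscle (limma, 0 members with an unadjusted p under 0.05) or within wild type muscle (2 members). Of all genes 0% passed in either of these age comparisons, so the lack of calls is not particular to the members. The smallest p in G93A-SOD1 muscle was that of Cox6a1, with a log2 fold change of 0.24 (adjusted p = 0.673), followed by Ndufa3 (-0.21) and Ndufv3 (-0.13). In wild type muscle it was that of Ndufaf7, with 0.45 (SE 0.14, adjusted p = 0.191), followed by Ndufs4 (0.30) and Atp5j (0.40). The comparisons at 100 and at 70 days share no arrays, and both lie below 0 for most members. They come from one normalization and one fit, so they are not fully independent of each other.

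In blood no member passed at 100 days (limma, 0 of 77, against 0.0595% of all 8403 genes) or at 70 days (0 of 77, against 0.0714%), and at neither age did any member have an unadjusted p under 0.05. By direction, 0.0238% of all genes were higher and 0.0357% lower at 100 days, and 0.0119% higher and 0.0595% lower at 70 days, with 0 members each. The fold changes were balanced, with 45 of 77 below 0 at 100 days and 39 at 70 days, and a median of -0.01 at both ages. At 100 days Cox6a1 ran from 12.26 through 12.57 to 12.87 in G93A-SOD1 blood, against 12.43, 12.77 and 13.25 in wild type blood (log2 fold change -0.25, SE 0.14, adjusted p = 1). Cox4i2 (-0.21) and Atp5b, the beta subunit of the catalytic head of ATP synthase (-0.19), came next by p. At 70 days Ndufs5 ran from 9.05 through 9.17 to 9.50, against 9.30, 9.38 and 9.57 (log2 fold change -0.20, SE 0.10, adjusted p = 0.782), followed by Ndufb11 (0.26) and Ndufc1 (0.18). The groups overlapped in each case. No member passed for the interaction (limma, 0 with an unadjusted p under 0.05), within G93A-SOD1 between 100 and 70 days (4 members) or within wild type (9 members). In each of these comparisons 0% of all genes passed too, so the lack of calls is not particular to the members. The counts of unadjusted p are given without a share over all genes, as a description. In the interaction the smallest p values belonged to Ndufc1 (-0.30), Cox4i1 (-0.29) and Ndufaf4 (0.32). Within G93A-SOD1 they belonged to Cox6b1 (0.25), Cox10 (-0.21) and Ndufb4 (0.37), and within wild type to Sdhaf4 (0.34), Ndufa9 (-0.39) and Ndufb5 (0.57).

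In spinal cord, the tissue in which motor neurons are lost, no member passed at 100 days (limma, 0 of 82, against 0.0185% of all 10801 genes) and 1 had an unadjusted p under 0.05. The fold changes were balanced, with 45 of 82 below 0 and a median of -0.01, against 0.02 over all genes. Without the 5 spinal cord arrays named, 52 of 82 were below 0, 4 had an unadjusted p under 0.05 and none passed. With arrays centred on their medians 2 of 82 were below 0, with a median of 0.26 against 0.25 over all genes. Atp5j, coupling factor 6 of the peripheral stalk, ran from 8.57 through 8.91 to 9.20 in G93A-SOD1 spinal cord, against 8.87, 9.09 and 9.75 in wild type (log2 fold change -0.27, SE 0.12, adjusted p = 1), and its log2 fold change was -0.18 without the 2 arrays with few detected probes. Ndufs7 was second (-0.19), with every G93A-SOD1 array below the wild type mean, followed by Ndufa8 (-0.13). All 8 detected motor neuron genes were below 0 at 100 days, with a median of -0.18, and none passed; 0 had an unadjusted p under 0.05. Their summed linear level was 10379 to 14824 in G93A-SOD1 spinal cord, against 13027 to 18392 in wild type. All 9 detected astrocyte genes were above 0, with a median of 0.37, as were all 11 detected microglia and macrophage genes, with a median of 0.69, and none passed the test (limma; 4 and 8 had an unadjusted p under 0.05). Their part in the member values was not tested.

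At 70 days in spinal cord no member passed (limma, 0 of 82, against 0.0278% of all genes), and 10 had an unadjusted p under 0.05 (12.2%, against 5.01% of all genes). Below 0 were 73 of the 82 (89%, against 55.5% of all genes), including all 33 of complex I, with a median of -0.09 against -0.03. Some arrays stood apart in these values. Per array, the member mean was -0.66, 0.06, -0.10, -0.06, -0.19, -0.18, -0.11 and -0.08 in G93A-SOD1, against -0.08, -0.00, 0.42, 0.05, 0.26, -0.06, -0.06 and -0.01 in wild type. The lowest value came from the array with the fewest detected probes, and the 2 highest from wild type arrays with muscle transcripts. Without the 5 arrays named at the start, 61 of 82 members were still below 0, with a median of -0.053 against -0.008 over all genes. An unadjusted p under 0.05 (limma) was then reached by 2 members.

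Ndufb7 had the smallest p at 70 days: it ran from 4.83 through 7.51 to 7.96 in G93A-SOD1 spinal cord, against 7.80, 8.00 and 8.33 in wild type (log2 fold change -0.80, SE 0.26, adjusted p = 0.740). Cox19 ran from 7.29 through 8.75 to 8.98, against 8.79, 8.99 and 9.18 (log2 fold change -0.40, SE 0.15, adjusted p = 0.740), and all 8 G93A-SOD1 arrays were below the wild type mean. Sdhd, a membrane anchor of complex II, had a log2 fold change of -0.75 (SE 0.30, adjusted p = 0.740). In each of the 3 genes the lowest array was replicate 1, the array with the fewest detected probes, and it stood far below the others of its group. Without the 2 arrays with few detected probes the log2 fold change was -0.46 for Ndufb7 (adjusted p = 0.169), -0.22 for Cox19 and -0.38 for Sdhd, and without all 5 arrays it was -0.43, -0.17 and -0.29. No member passed in the interaction (limma, 3 with an unadjusted p under 0.05), within G93A-SOD1 between 100 and 70 days (2) or within wild type (4). Each of these comparisons had 0% of all genes past the threshold as well, so the lack of calls is not particular to the members. The interaction gave -0.47 for Atp5j, 0.51 for Cox19 and 0.23 for Atp5j2, and -0.32, 0.28 and 0.12 without the 5 arrays. Within G93A-SOD1 the values were 0.62 for Ndufb7, 0.33 for Cox19 and 0.23 for Ndufa7, and 0.29, 0.13 and 0.19 without them. Within wild type they were 0.32 for Atp5j, -1.90 for Cox6a2 and -1.46 for Cox8b, and 0.20, -0.17 and -0.08 without the 5 arrays. Cox6a2 and Cox8b are muscle isoforms, and without the 3 arrays with muscle transcripts alone they were -0.48 and -0.28.

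The tissues of wild type mice differed much more than the genotypes did. After joint normalization of all arrays, 78 of 82 members differed between muscle and spinal cord (95.1%, limma over 12008 genes, adjusted p under 0.05), against 75.9% of all genes. Higher in muscle were 75 members (91.5%, against 40.1% of all genes) and lower were 3 (3.66%, against 35.9%), with a median log2 difference of 1.23 against 0.08. By complex the medians were 1.25, 1.54, 1.33, 0.75 and 1.50 for complexes I to V. Between tissues of unlike composition, every such value rests on the assumption that the arrays have the same distribution of signal.

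The muscle isoforms of complex IV had the 3 largest differences. Cox6a2 was 14.66 at the lowest, 14.76 at the median and 14.87 at the highest in 15 muscle arrays, against 4.87, 6.64 and 13.24 in 15 spinal cord arrays. Its log2 difference was 7.44 (SE 0.43, 174-fold, adjusted p = 4.84e-29), and 8.28 without the 3 spinal cord arrays with muscle transcripts, which gave the highest spinal cord values. Cox8b was 14.21, 14.35 and 14.68 in muscle, against 5.55, 6.96 and 12.20 in spinal cord, a log2 difference of 6.98 (SE 0.32, 126-fold), or 7.67 without those arrays. Cox7a1 was 13.76, 14.23 and 14.37, against 7.34, 7.92 and 11.77, a log2 difference of 5.88 (SE 0.23, 59.1-fold), or 6.41 without them. The ranges of the tissues did not overlap for any of the 3. The next largest differences were those of Ndufb9 (2.53) and Ndufb2 (2.52), supernumerary subunits of complex I. Ndufb2 was detected on 16 of the 31 spinal cord arrays, so its value rests on a spinal cord signal partly at background.

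The ubiquitous isoforms of the same subunits went the other way for subunits 6a and 8. Cox6a1 was 9.36, 9.71 and 10.03 in muscle, against 12.39, 12.58 and 13.29 in spinal cord, 7.75-fold lower in muscle (log2 difference -2.95, SE 0.08), and its second probe gave -3.03. Cox8a was 9.68, 9.96 and 10.41 in muscle, against 12.15, 12.52 and 12.82 in spinal cord, 5.96-fold lower in muscle (log2 difference -2.58, SE 0.08). Cox7a2 was higher in muscle, with a log2 difference of 0.64 (SE 0.14), but with arrays centred on their medians its difference was 0.05 (adjusted p = 0.840) and was not called. Cox4i1, the ubiquitous form of subunit 4, was slightly lower in muscle (-0.25, SE 0.05), Cox4i2 higher (1.28, SE 0.14) and Cox6b1 higher (0.51, SE 0.06). The lower value of Cox4i1 turned to 0.49 with arrays centred on their medians. Not called were Ndufaf7 (-0.11), Cox6b2 (-0.20), Ndufa4 (0.09) and Atp5b (0.11). The Cox6b2 probe was near background here, detected on 0 of 8 wild type muscle arrays at 70 days and 1 of 7 at 100 days. With arrays centred on their medians Ndufaf7 (-0.94) and Ndufa4 (0.83) were called. Atp5g1 (1.93) and Atp5g2 (1.89) were higher in muscle, and Atp5g3 (0.16, adjusted p = 0.0464) close to the threshold. Cox7b was higher in muscle by 2.33 (SE 0.30). Cox8a and Cox6a1, the ubiquitous forms that were lower in muscle than in spinal cord, were also the complex IV subunits with the highest fold changes in G93A-SOD1 muscle at 100 days, while Cox4i1, the other subunit called lower in muscle, had a log2 fold change of -0.06 there.

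**Figure D4:**
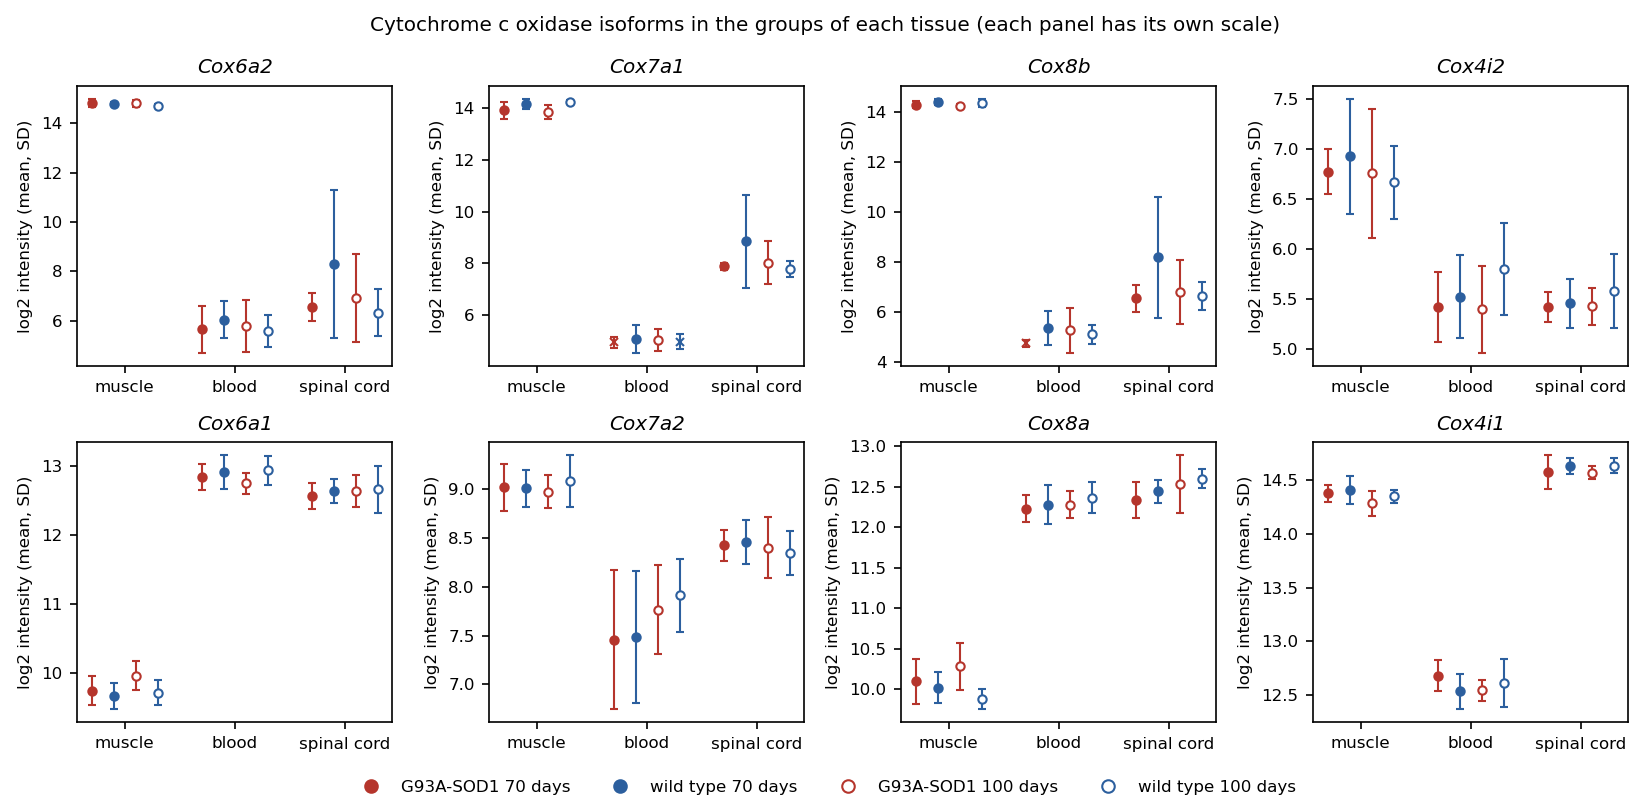
Mean log2 level and SD of complex IV isoform genes in each of the 12 groups, after joint normalization; muscle forms are Cox6a2, Cox7a1 and Cox8b, ubiquitous forms Cox6a1, Cox7a2, Cox8a and Cox4i1, Cox4i2 is also shown, and a cross marks a gene detected on no array of a group. Cox6a2 averages 14.76 in wild type muscle and 7.38 in wild type spinal cord, and Cox6a1 averages 9.70 in wild type muscle and 12.65 in wild type spinal cord.

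In blood against spinal cord 73 of 82 members differed (89%, against 84.2% of all genes). Lower in blood were 64 (78%, against 43.3%) and higher were 9 (11%, against 40.9%), with a median log2 difference of -1.09 against -0.04. With arrays centred on their medians 71 were lower and 1 was higher. The medians by complex were -1.27, -1.71, -1.07, -0.69 and -0.94 for complexes I to V. The assembly factors of complex IV were split, 4 higher and 4 lower. Cox6b2, known as a testis isoform, was the highest: it was 7.40, 9.25 and 10.24 in 15 blood arrays, against 4.77, 5.05 and 5.22 in 15 spinal cord arrays, with no overlap. Its log2 difference was 3.94 (SE 0.17, 15.3-fold), but a second probe gave 0.93 (SE 0.12), so the size differs between the probes. In wild type spinal cord it was detected on 6 of 8 arrays at 70 days and 3 of 7 at 100 days. The spinal cord signal thus lay near background, and the difference does not measure a size. It was followed by the assembly factors Cox20 (1.10), Sdhaf2 (0.85) and Cox16 (0.68), and by Atp5g2 (0.44). These 4 had differences of -0.26, -0.52, -0.60 and -0.65 with arrays centred on their medians, so their direction depends on the scaling.

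Of the members that passed detection in blood, those furthest below spinal cord were Ndufc1 (-2.70), Ndufb8 (-2.69), Ndufaf5 (-2.56) and Ndufb10 (-2.48). The 5 members that did not pass detection in blood entered this comparison through the other tissues. Among them, Cox7a1 was detected on 1 and Cox8b on 2 of the 15 wild type blood arrays, so their fitted differences of -3.30 and -2.17 rest on a blood signal mostly at background and do not measure a size. Without the 3 spinal cord arrays with muscle transcripts these were -2.80 and -1.50. Cox6a2, detected on 7 of the 15 blood arrays, had a difference of -1.50, and of -0.69 without those arrays. Of the ubiquitous forms, Cox4i1 (-2.07), Cox6b1 (-1.26) and Cox7a2 (-0.70) were lower in blood, Cox8a slightly lower (-0.20) and Cox6a1 slightly higher (0.28). With arrays centred on their medians neither of the last 2 was called (adjusted p = 0.102 for Cox8a and 0.0785 for Cox6a1), and Cox8a was not called without the 5 spinal cord arrays (adjusted p = 0.0612). Ndufa4 (-1.85), Atp5g1 (-1.72) and Atp5g3 (-2.35) were lower, and Cox4i2 (0.14) and Cox7b (0.37) were not called. Cox11 and Atp5pb were not well above background on any wild type blood array; they were at least 1.07-fold and at least 1.06-fold higher in spinal cord, taking the lowest signal well above background on each array as the bound.

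**Figure D5:**
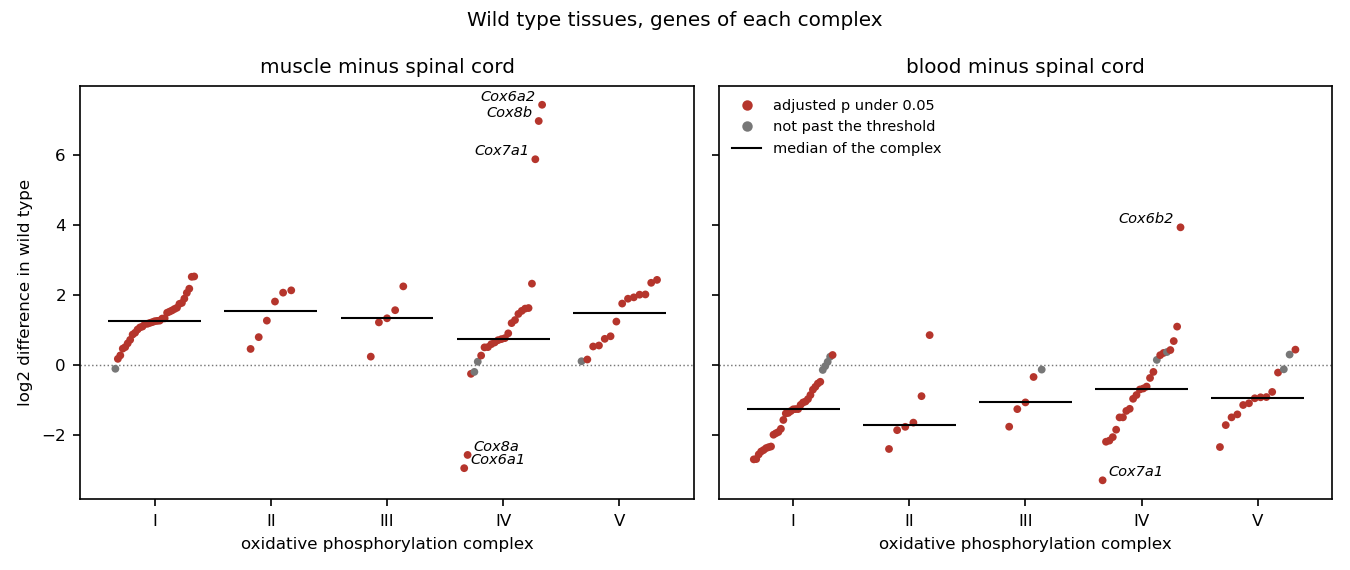
Log2 difference between tissues of wild type mice for each member, split by complex, for muscle minus spinal cord and blood minus spinal cord, 1 dot per gene, red for an adjusted p under 0.05 and grey otherwise, with a bar for the median of each complex. The medians are 1.25, 1.54, 1.33, 0.75 and 1.50 in muscle and -1.27, -1.71, -1.07, -0.69 and -0.94 in blood for complexes I to V.

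The members also differed in how much they varied within groups. In muscle 11 of 82 members (13.4%, against 9.91% of all genes) had a within-group SD over 0.5 on the log2 scale. They were Atp5k, Cox7b, Ndufb4, Atp5pb, Atp5e, Atp5md, Atp5a1, Ndufb9, Sdhd, Uqcrb and Ndufb2, with within-group SDs between 0.51 and 1.09. As deviations from the group means over the 30 muscle arrays, these 11 moved together, with a median correlation of 0.88 over 55 pairs (0.64 to 0.95), against 0.26 among the other members. In spinal cord 19 members (23.2%, against 20.5%) and in blood 9 of 77 (11.7%, against 14.8%) were over that SD, with median correlations of 0.48 and 0.63. The spinal cord values include the arrays with muscle transcripts and those with few detected probes. The widest members there were the muscle isoforms Cox6a2 (SD 1.75) and Cox8b (1.34). Atp5a1, the alpha subunit of the catalytic head of ATP synthase, Cox7b and Ndufb9 were over that SD of 0.5 in all 3 tissues, and 10 members in 2 tissues. The probes for subunits of one complex thus did not share a spread. Atp5b, which pairs with Atp5a1 in the catalytic head, had a within-group SD of 0.11 in muscle, against 0.79 for Atp5a1. Their mean log2 levels also differed, 14.89 for Atp5b and 9.95 for Atp5a1. The 11 wide muscle members lay at mean levels between 7.20 and 10.59. Some members at low levels were not wide, among them Ndufaf7 (level 6.36, SD 0.27). The part of probe signal in the spread was not tested. Members chosen for a wide SD share arrays and their variation, so these correlations are a description.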

How the data were processed

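RNA from muscle, blood and spinal cord was labelled as biotinylated cRNA and hybridised to Illumina arrays, per the labels' protocols. The authors deposited unnormalized intensity for every probe and, beside it, the p-value of detection (per the file headers), and a deposited value table on the log2 scale, which served as an alternative. Lines without a probe identifier (7, 0.00539% of the signal) were left out. Each tissue was background-corrected and quantile-normalized with neqc (limma 3.58.1, R 4.3.3). Probes detected at p under 0.05 on at least 7 arrays of the tissue were kept, the brightest per gene, and group means were fitted with lmFit and eBayes, with Benjamini-Hochberg adjustment over all genes tested and a threshold of 0.05. Tissues were compared in wild type after joint normalization of the 92 arrays. Of 24613 probes, 20984 had 1 gene symbol, 1 several and 3628 none; all 91 members matched RefSeq.

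Genes were named by rule: members past the threshold (up to 8 a direction), or the 3 with the smallest p where none passed; in muscle at 100 days the smallest p of each complex in each direction; the 5 largest differences between tissues in each direction; the isoform genes; and up to 4 genes past the threshold from each other list. Other members named were chosen after their values were seen. Members and lists were chosen with earlier results of these data known. The labels do not state separate animals, so p-values measure only the spread between these samples. The number of arrays limits the precision. Simulated data drew the noise of each gene independently around its wild type mean and moved few genes. Real arrays share variation between genes, and more genes were called in muscle, so the simulated rates are only a guide. On simulated data for muscle at 100 days (9089 genes), 50% of genes changed by 0.5 on the log2 scale were recovered, 86.9% at 1 and 100% at 2, and 7.91% of calls were false. In spinal cord at 100 days (10801 genes) the shares were 31%, 81.4% and 97.2%, with 4.61% of calls false, and in blood at 100 days (8403 genes) 28.3%, 80% and 100%, with 4.58% false. Alternatives were median centring, no background correction, no detection filter, array weights, every probe, the deposited log2 values, only the groups compared in the fit, joint normalization, a replicate block and, chosen after seeing the data, leaving out the arrays that stood apart.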

Additional observations from a re-analysis of the deposited data

Results flagged for a closer look

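The highest or lowest array was tested for a wide gap to its neighbours in 58 sets of values, the member mean in each of the 12 groups and single genes in the muscle groups at 100 days. Of the 58, 3 had such a gap, and chance gives one in about 5%. The member mean of replicate 1 of G93A-SOD1 spinal cord at 70 days was -0.66, against -0.19 to 0.06 on the other arrays of its group, and this was the array with the fewest detected probes. Cox8b in replicate 4 of G93A-SOD1 muscle at 100 days was 14.17, against 14.34 to 14.44 on the others. Sdhaf2 in replicate 7 of wild type muscle at 100 days was 8.03, against 8.39 to 8.59.

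The Cox19 fold changes at 70 days had opposite signs in muscle and spinal cord, and neither passed the test. The log2 fold change was 0.26 in muscle, where all 8 G93A-SOD1 arrays lay above the wild type mean. It was -0.40 in spinal cord, where all 8 lay below it. There it was -0.22 without the 2 arrays with few detected probes and -0.17 without all 5 arrays that stood apart. Other members, among them Ndufb7 and Sdhd, also had every G93A-SOD1 spinal cord array below the wild type mean at 70 days. The difference between the tissues was not tested.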

How the results depend on the processing

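With arrays centred on their medians, the count of members called in muscle at 100 days was 0 (43 genes in all, 0.473%), with no detection filter 0 (498 of 19596 genes, 2.54%), and with array weights 9, of them 2 higher and 7 lower (1575 genes, 17.3%), among them Cox7a1 (adjusted p = 0.0323) and Sdhc (0.0433); the cause was not tested. Array weights gave 1 member in spinal cord at 70 days (Ndufb7, -0.50, adjusted p = 0.0452). Median centring moved the member medians to -0.58 in spinal cord at 70 days (all genes -0.34), 0.26 at 100 days (0.25), 0.29 in blood at 70 days (0.28) and 0.0840 at 100 days (0.12), and in muscle at 100 days to -0.0550, -0.0698 and -0.0564 for complexes I to III (all genes 0.18). It reversed, in spinal cord at 100 days, Atp5j (0.0724), Ndufs7 (0.13) and Ndufa8 (0.19), and Atp5j in the interaction (0.37); in muscle at 100 days Atp5j2 (-0.0137), Cox6a2 (-0.0188), Cox6b2 (0.00564) and Cox7a2 (0.13); in blood at 70 days Ndufs5 (0.18); for muscle minus spinal cord Cox4i1 (0.49); and for blood minus spinal cord Atp5g2 (-0.65), Cox16 (-0.60), Sdhaf2 (-0.52), Cox20 (-0.26), Cox4i2 (-0.52) and Cox7b (-0.80). Array weights reversed Sdhaf2 (-0.00537), Atp5j2 (-0.0106) and Cox6b2 (0.0233) in muscle at 100 days, and the deposited log2 values Cox6b2 (0.0244) and Ndufaf7 (0.0207) for muscle minus spinal cord. The labels do not say whether the replicate numbers pair samples, and they were not taken as pairs. In each tissue and age some same-numbered pair correlated below 0.1 (lowest -0.31 to -0.12), but the medians were above 0 (0.09 to 0.25). In blood 7 of 8 pairs at 70 days and 6 of 7 at 100 days were over 0.1. The best correlation was with the own number in 4 of 8 in spinal cord at 70 days and 4 of 7 in muscle at 100 days. It was so in 0 to 3 in the other sets. These values cannot decide whether the numbers pair samples, since some sets go one way and some the other. With a replicate block, 4 members were called in muscle at 100 days (1322 genes, 14.5%), 0 in the other genotype and age comparisons, 78 for muscle minus spinal cord and 73 for blood minus spinal cord. Every probe taken alone gave 1070 calls of 10649 probes in muscle at 100 days. Over the alternatives, 133 of the main counts and medians were labelled the same and 11 moved. That label allowed small shifts, such as 4 members against 3 in muscle at 100 days with the replicate block. Many of these counts were 0 in comparisons where few or no genes passed, so they could hardly move. Of the values of single genes 830 stayed the same, 21 reversed, 14 were weaker and 5 were stronger.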

Other observations

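Some members had probes that disagreed between tissues. For muscle minus spinal cord the log2 difference was 1.61 and 0.01 for the probes of Cox16, 1.27 and -0.08 for those of Ndufv3, and 2.07 and 0.91 for those of Sdhb. For blood minus spinal cord it was -1.27 and 0.22 for Ndufv3 and -1.65 and -0.27 for Sdhb. The brighter probe is given first in each case.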
